A study of Mus musculus with 4 samples.

Results

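Eomes, Tbx21, Runx3, Id2, Id3, Prdm1, Maf and Tox are transcription factor genes known from effector T cells and natural killer (NK) cells, and they were listed by name, with no threshold on their values. All 8 were found among the 17252 genes of the table and all had UMIs (unique molecular identifiers, 1 per captured mRNA molecule). Their mRNA was measured in single cells by Drop-seq, a method that captures the 3′ ends of mRNA on barcoded beads in droplets. The cells were splenocytes of BALB/c mice that had each received 10000 cells of BCL1, a transplantable B cell lymphoma, on day 0 and whose spleens were taken on day 13. Every group therefore carried the lymphoma, and there was no tumor-free group. The 4 libraries were 1 of mice given isotype control antibody, 1 of mice given anti-CD20, 1 of mice given anti-CD27 and 1 of mice given the combination. CD20 is a surface protein of B cells and of the lymphoma, and CD27 is a costimulatory receptor on T cells and some NK cells. By the labels, anti-CD20 was given on day 4 and, from day 5 to day 8, anti-CD27, whereas the study's methods for the single-cell experiment give earlier days, and neither gives the number of mice behind a library.

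The T-box factors Eomes and T-bet (the product of Tbx21) switch on genes of cytotoxicity and interferon-γ in CD8 T cells and NK cells, and Runx3 acts with them and silences Cd4 in the CD8 lineage. Id2 and Id3 have no DNA-binding part of their own and hold E proteins off their sites (E-boxes). Id2 is known from effector T cells and NK cells and Id3 from naive and memory T cells. Blimp-1 (Prdm1) is a transcriptional repressor made in terminal effector cells and in plasma cells. The factor c-Maf drives cytokine programs of CD4 T cells and is also made by macrophages, and Tox is known from developing and from persistently stimulated T cells.

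The promoters of the T-box pair are shown as those of 2 related genes that stood higher in T cells with effector genes and in NK cells. Id2 stood higher in both classes too, but its window overlaps an annotated exon and is not shown. Each run is the 250 bases before an annotated start, taken from RefSeq on GRCm38.p6, at chr9:118477939-118478188 (+ strand) for Eomes and chr11:97115332-97115581 (− strand) for Tbx21. Capitals mark an E-box match (CANNTG).
Eomes: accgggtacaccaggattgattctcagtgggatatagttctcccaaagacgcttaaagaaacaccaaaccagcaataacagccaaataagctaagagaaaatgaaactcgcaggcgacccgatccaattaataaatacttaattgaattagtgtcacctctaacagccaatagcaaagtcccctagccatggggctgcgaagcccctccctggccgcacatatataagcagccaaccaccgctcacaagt
Tbx21: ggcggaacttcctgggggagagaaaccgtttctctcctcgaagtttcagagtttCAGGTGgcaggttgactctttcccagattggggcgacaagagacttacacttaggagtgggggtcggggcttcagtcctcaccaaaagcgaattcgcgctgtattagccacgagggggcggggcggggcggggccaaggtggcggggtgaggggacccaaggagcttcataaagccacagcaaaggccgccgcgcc
On both strands, the Eomes run held no TGTGGT (a core that RUNX factors bind) and no E-box match. The Tbx21 run held no TGTGGT and 1 E-box match. Of 32851 such windows of the genome, 14% held TGTGGT and 66.2% held CANNTG. Windows were matched for 6 of the 8 genes. The window before the first of the matched Runx3 starts held 2 matches to TGTGGT. Such a match is a description of letters and not a bound site.

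Barcodes with 300 to 3000 detected genes were kept, which left 340 cells of the isotype control library, 501 of anti-CD20, 497 of anti-CD27 and 432 of the combination, 1770 in all. These cells held between 440710 and 939565 UMIs per library and a median of 1031 to 1395.5 UMIs per cell, and no barcode was shared between libraries. T cells were cells with a UMI of Cd3d, Cd3e or Cd3g and with fewer than 2 markers of any other lineage, and NK cells had no T cell marker and at least 2 UMIs of 8 NK receptor genes. The gates used none of the 8 transcription factors. T cells numbered 50 in the isotype control, 155 in anti-CD20, 112 in anti-CD27 and 149 in the combination, and NK cells 4, 18, 0 and 12. The anti-CD27 library thus has no NK value. B cells were 216, 229 and 192 in the first 3 libraries and 4 in the combination, and lymphoma and host B cells were not told apart.

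With 1 library per treatment there is no replicate and no test between treatments. Levels are given as UMIs and as CPM (UMIs of the gene, scaled to 1000000 UMIs of the class), and log2 ratios of CPM carry exact 95% intervals in parentheses that cover counting error only, taking UMIs as independent. Differences between mice lie outside those intervals. A gene counts as called past a 2-fold ratio with at least 10 UMIs in the compared pair. Pairs that add anti-CD27 to a matched background were compared, the combination over anti-CD20 and anti-CD27 over the isotype control, which share no library. Levels are not compared between genes, and a share of the joint UMIs of a pair of genes describes what was captured.

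Most Eomes and Tox UMIs lay in T cells, and those of the other genes were spread over more classes. T cells held 61.4% of the 176 Eomes UMIs, 59.9% of the 147 Tox UMIs, 45.5% of the 1098 Id2 UMIs and 40.6% of the 229 Runx3 UMIs, while T cells were 26.3% of cells and held 21.4% of all UMIs. NK cells, 1.92% of cells, held 13.1% of the Eomes and 14% of the Tbx21 UMIs. B cells, 36.2% of cells with 35.3% of all UMIs, held 68.6% of the 293 Id3 UMIs, at 178 CPM. Their 40% of the 100 Tbx21 UMIs, at 35.4 CPM, was near their share of all UMIs. Maf was shared between T cells (34.9% of 450 UMIs) and macrophages or monocytes (32.4%, at 575 CPM). Prdm1 had 43 UMIs in all cells, the fewest of the 8. Granulocytes by the gate held 21 Eomes UMIs, and all 10 of their cells with Eomes also had a Cd3 UMI. Such cells, 119 of the 585 with a Cd3 UMI, were kept out of the T cells and held 28 Eomes and 140 Id2 UMIs.

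**Figure D1:**
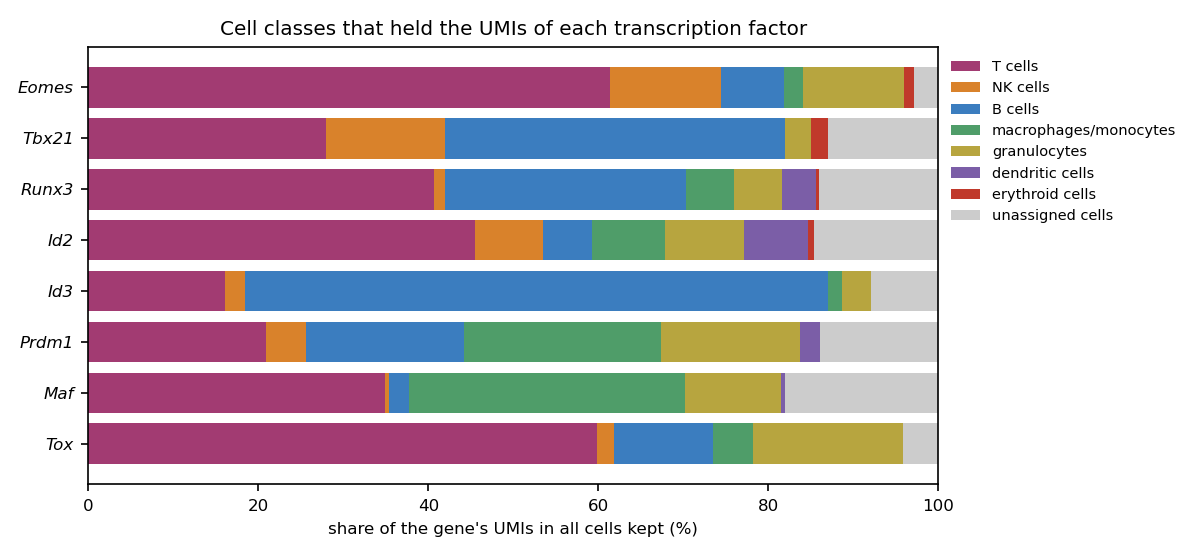
Share of each gene's UMIs (x axis, %) by cell class over all 1770 cells, with 1 bar per gene and the 8 classes in colors. T cells take 61.4% of the Eomes bar and B cells 68.6% of the Id3 bar.

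Eomes was lowest in T cells of the isotype control and highest in those of the combination. Its UMIs in T cells were 1 in the isotype control, 16 in anti-CD20, 38 in anti-CD27 and 53 in the combination, or 17, 81.3, 203 and 218 CPM. Anti-CD27 and the combination lay close together and above both libraries without anti-CD27. The combination was 2.68-fold higher than anti-CD20 (log2 1.42, 0.59 to 2.33), and anti-CD27 was 11.9-fold higher than the isotype control (log2 3.57, 1.01 to 8.91), a ratio that rests on 1 UMI in the control. The log2 ratio was 1.57 when cells with markers of another lineage were kept, where 4 Eomes UMIs of such cells join the 1 of the control, and 1.54 among T cells with no UMI of another lineage. A UMI of Eomes was found in 2%, 7.1%, 19.6% and 18.8% of T cells in that order, and in 1.01%, 2.66%, 5.42% and 6.22% after each cell was thinned to 400 UMIs. In 52 erythroid cells, which should lack the gene, the share was 3.85% at a median of 3377 UMIs against 1161.5 in T cells. The isotype control share of 2% was under it. Both erythroid UMIs of Eomes were in the combination library, and 1 of the 2 cells also had a Cd3 UMI. The isotype control held only 2 erythroid cells, so its own background was not measured.

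For Tbx21, the T-bet gene, no difference between libraries was detectable at this depth. Tbx21 had 2, 6, 8 and 12 UMIs in T cells, with the libraries in the order above, or 34, 30.5, 42.6 and 49.4 CPM. All 4 intervals overlap, and the log2 ratios were 0.70 (−0.83 to 2.39) for the combination over anti-CD20 and 0.33 (−2.0 to 3.60) for anti-CD27 over the isotype control. Eomes made up 79.4% of the joint Eomes and Tbx21 UMIs of T cells (95% Clopper-Pearson interval 71.6% to 85.9%).

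Runx3 was lowest in T cells of the isotype control. Its T cell UMIs were 1, 27, 25 and 40, or 17, 137, 133 and 165 CPM. The 3 treated libraries had overlapping intervals, and the combination over anti-CD20 gave 0.26 (−0.48 to 1.02). Anti-CD27 over the isotype control gave 2.97 (0.36 to 8.33), again over 1 UMI in 50 cells, and 0.86 among T cells with no UMI of another lineage, which ends the call. Among T cells with no UMI at all of another lineage, the combination over anti-CD20 ratio of Runx3 was 1.14.

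Id2 was higher and Id3 lower in T cells of the combination than in those of anti-CD20. Id2 had 15, 110, 163 and 212 UMIs in T cells, or 255, 559, 869 and 873 CPM. The 2 libraries with anti-CD27 were level with each other and above anti-CD20, which was above the isotype control. Id2 was 1.56-fold higher in the combination than in anti-CD20 (log2 0.64, 0.30 to 0.99) and 3.4-fold higher in anti-CD27 than in the isotype control (log2 1.77, 1.0 to 2.64; 0.92 among T cells with no UMI of another lineage). Id3 had 2, 22, 13 and 10 UMIs, or 34, 112, 69.3 and 41.2 CPM. It was 2.72-fold lower in the combination than in anti-CD20 (log2 −1.44, −2.68 to −0.30), while anti-CD27 over the isotype control was 1.03 (−1.12 to 4.22) and was −0.61 when cells with markers of another lineage were kept. Of the joint Id2 and Id3 UMIs of T cells, Id2 was 88.2%, 83.3%, 92.6% and 95.5%.

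Maf was the gene with its T cell level highest in the isotype control. It had 23, 38, 63 and 33 UMIs, or 391, 193, 336 and 136 CPM. The 2 libraries given anti-CD20 were the low ones, and their intervals (137 to 265 CPM and 93.5 to 191 CPM) overlap each other. The combination over anti-CD20 was −0.51 (−1.23 to 0.20) and anti-CD27 over the isotype control −0.22 (−0.93 to 0.54). Tox had 4, 23, 25 and 36 UMIs, or 68.1, 117, 133 and 148 CPM, and all 4 intervals overlap. Prdm1 had 0, 1, 2 and 6 UMIs. In the isotype control, the exact interval of 0 of 58776 UMIs reaches 62.8 CPM, so Prdm1 was not measurable by library in T cells.

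**Figure D2:**
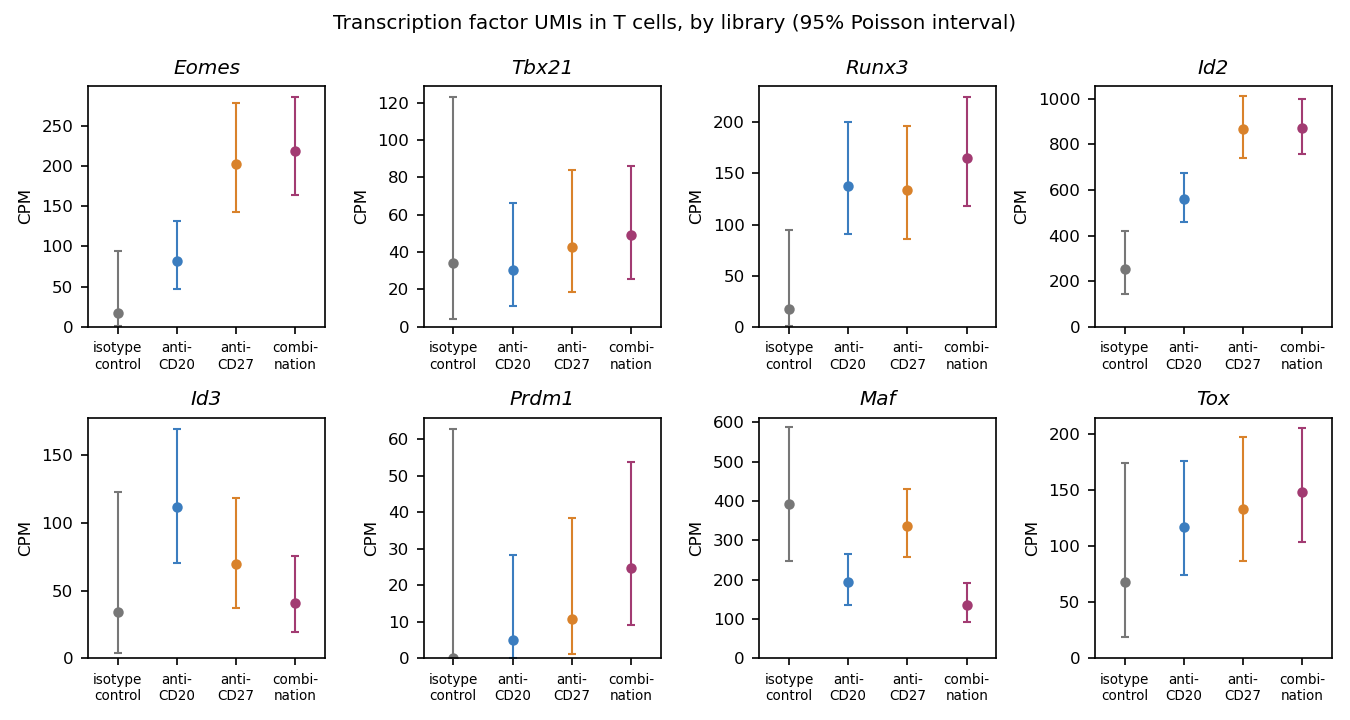
CPM of each gene in T cells (y axis, linear from 0) for the 4 libraries, 1 panel per gene. Points are the summed UMIs of 1 library and bars their exact 95% Poisson intervals. Eomes and Id2 are highest in the 2 libraries with anti-CD27 (203 and 218, 869 and 873 CPM).

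Of the 7 genes with enough UMIs in T cells, 1 (Eomes) was past 2-fold higher in the combination than in anti-CD20, against 10.8% of all genes counted, and 1 (Id3) past 2-fold lower, against 9.72%. For anti-CD27 over the isotype control, 4 of 7 (Eomes, Runx3, Id2 and Id3) were higher, where 15.5% of all genes were, and 0 were lower, where 11.1% were. The median log2 ratio of the counted genes was 0.34 and 1.03, beside −0.02 and 0.03 over all genes. The T cells also differed between libraries in the genes that mark their state. A list of 10 effector genes (granzymes, perforin, Nkg7, chemokines, Ifng and Fasl) gave 698, 2811, 7798 and 6507 CPM in T cells, and 8 cycling genes gave 919, 183, 1930 and 2169 CPM. Granulocyte markers gave 119, 76.3, 267 and 169 CPM, with 2, 5, 5 and 5 of 7 markers present, and B cell markers 136, 168, 117 and 4.12 CPM, with 4, 5, 5 and 1 of 8 present. The part of granulocyte and B cell RNA in these ratios was not tested.

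Over all cells kept, where fewer cells of a type and less RNA per cell cannot be told apart, Id3 had the lowest and Prdm1 the highest ratio of the combination over anti-CD20. Id3 had 68, 116, 81 and 28 UMIs, or 154, 123, 89.1 and 30.5 CPM. The combination was the low library, at a log2 ratio of −2.02 (−2.67 to −1.41) over anti-CD20, and it held 4 B cells where anti-CD20 held 229. Prdm1 had 1, 6, 15 and 21 UMIs, and the combination over anti-CD20 gave 1.84 (0.48 to 3.44) and anti-CD27 over the isotype control 2.86 (0.16 to 8.26). Id3 and Prdm1 were the only calls of the 8 genes for the combination over anti-CD20, against 12.1% of all genes higher and 12% lower.

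Eomes over all cells had 6, 41, 55 and 74 UMIs, or 13.6, 43.6, 60.5 and 80.7 CPM. Anti-CD27 over the isotype control was 2.15 (0.94 to 3.66) and the combination over anti-CD20 0.89 (0.32 to 1.47). Id2 had the same order of libraries, with 238, 257, 367 and 456 CPM and ratios of 0.63 (0.30 to 0.96) and 0.83 (0.60 to 1.06). Tox gave 1.13 (0.12 to 2.28) and 0.54 (−0.08 to 1.18), and Maf 0.60 (0.06 to 1.17) and 0.79 (0.44 to 1.14). Tbx21 was lower in anti-CD27 than in the isotype control (18.7 against 43.1 CPM, −1.20, −2.24 to −0.18). Of its UMIs in the control, 13 of 19 lay in B cells, which held 282001 of the 440710 UMIs of that library. For anti-CD27 over the isotype control, 3 of 8 genes (Eomes, Prdm1 and Tox) were called higher, against 10.3% of all genes, and 1 (Tbx21) lower, against 10.3%.

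T cells were next split by whether at least 2 of the 10 effector genes had a UMI, a split that was chosen with the data in view. Cells with effector genes were 3 of 50 T cells in the isotype control, 28 of 155 in anti-CD20, 50 of 112 in anti-CD27 and 46 of 149 in the combination, or 6%, 18.1%, 44.6% and 30.9%. They were deeper, with a median of 1489 UMIs against 1077, which makes detecting 2 genes more likely. The isotype control has too few of them for a ratio within it.

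Eomes, Tbx21, Runx3, Id2 and Tox were all higher in T cells with effector genes, and Id3 was lower. Eomes had 85 UMIs in the 127 cells with effector genes and 23 in the 339 without, or 317 against 55.1 CPM. That was 5.75-fold (log2 2.52, 1.84 to 3.26), and it was higher in each of the 3 libraries with enough cells, at 3.59 in anti-CD20, 1.35 in anti-CD27 and 2.30 in the combination. Tbx21 had 20 and 8 UMIs (74.5 against 19.2 CPM, log2 1.96, 0.71 to 3.35), with 4.33, 2.25 and 1.20 within anti-CD20, anti-CD27 and the combination and 1.28 without anti-CD20. Its 28 UMIs in T cells, level across libraries within their error, thus lay mostly in the smaller class.

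Runx3 had 54 UMIs with and 39 without effector genes (201 against 93.4 CPM, log2 1.11, 0.49 to 1.74). Tox had 55 and 33 (205 against 79 CPM, log2 1.37, 0.73 to 2.04), with 0.81, 1.10 and 2.25 within anti-CD20, anti-CD27 and the combination. Both genes showed the same direction in all 3 libraries. Id2 had 314 and 186 UMIs (1169 against 445 CPM, log2 1.39, 1.13 to 1.66). Within libraries Id2 differed little in anti-CD20 (0.39) and more in anti-CD27 (1.84) and the combination (1.41). The cells with effector genes of anti-CD20 held 689 CPM of Id2, those of anti-CD27 1225 and those of the combination 1307.

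Id3, the counterpart of Id2, had 2 UMIs in the cells with effector genes and 45 in those without, or 7.45 against 108 CPM. It was 14.5-fold lower (log2 −3.86, −6.94 to −1.92), at −1.78 with the classes taken from Leiden clusters and −2.88 without the anti-CD27 library. The direction held in the 3 treated libraries, at −2.39 in anti-CD20 and −2.97 in the combination. In anti-CD27 it was 0 against 13 UMIs, the latter from 6 cells. That was 6.39-fold lower with the absent side set to 3 counts, a value that leaves out the counting error of the 13. Id2 was 99.4% of the joint Id2 and Id3 UMIs of cells with effector genes and 80.5% of those without. Of the 29 T cells with Id3, 5 also had Id2, 6 had Eomes, 4 had Tox, and none had Tbx21 or Runx3. Of all 466 T cells, 152 had Id2, 62 Eomes, 63 Tox, 21 Tbx21 and 72 Runx3. Whether the overlaps differ from these shares was not tested.

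Maf did not share the pattern. It had 70 UMIs with and 87 without effector genes (261 against 208 CPM, log2 0.32, −0.15 to 0.79). The libraries disagreed in sign: −1.08 in anti-CD20, 0.99 in anti-CD27 and 0.64 in the combination, and without the anti-CD27 library the pooled ratio of Maf was −0.50. Prdm1 had 6 and 3 UMIs, and 5 of the 6 came from the combination. Of the 7 genes counted, 5 were called higher, against 10.6% of all genes, and 1 (Id3) lower, against 13.8%. The T cells with effector genes of anti-CD20 also carried 43 UMIs of the NK markers (1097 CPM, 7 of 8 markers), against 18 (161 CPM) in anti-CD27 and 17 (150 CPM) in the combination. The part of NK-marker cells in the anti-CD20 values was not tested.

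**Figure D3:**
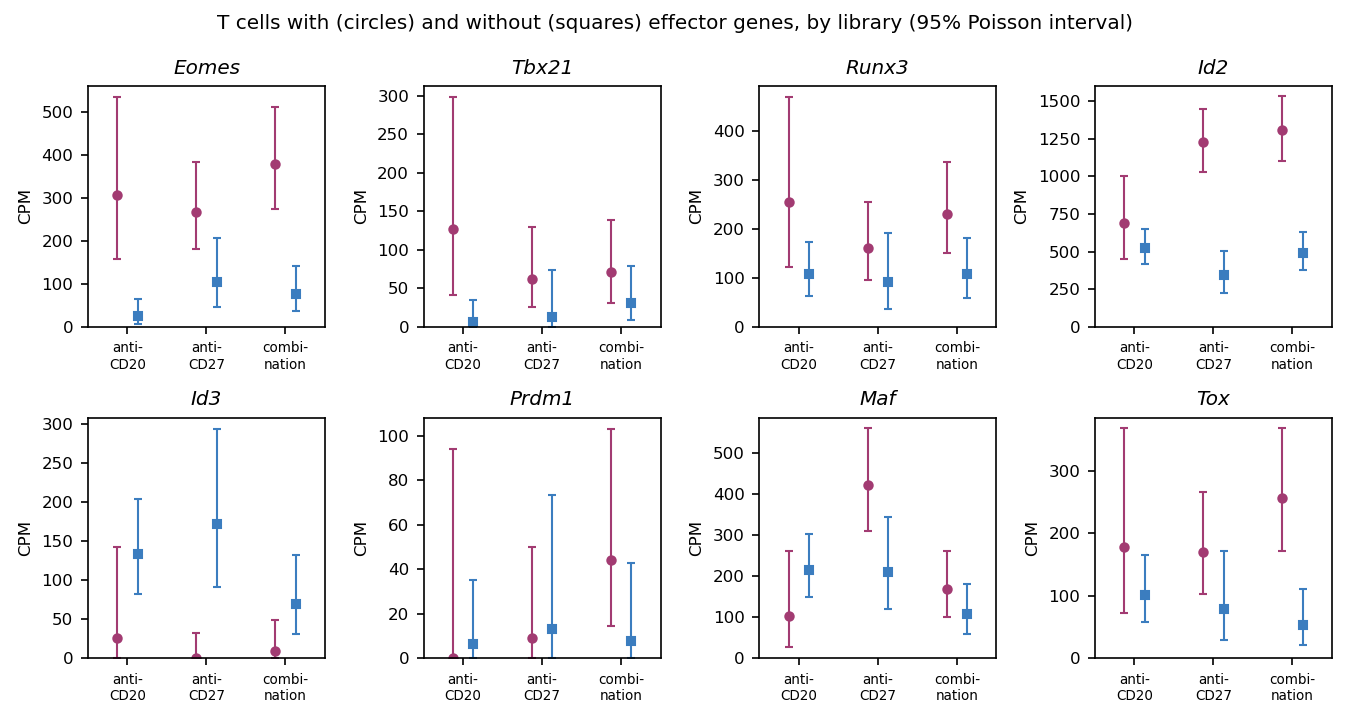
CPM (y axis, linear from 0) in T cells with effector genes (circles) and without (squares), for the 3 libraries with enough cells and 1 panel per gene, with exact 95% Poisson intervals. Circles lie above squares for Eomes and Tox in all 3 libraries and below them for Id3, and Maf changes sides between anti-CD20 (102 against 216 CPM) and anti-CD27 (420 against 211 CPM).

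The libraries were then compared within each of these T cell classes. Eomes in cells with effector genes was 306 CPM in anti-CD20, 268 in anti-CD27 and 380 in the combination, with overlapping intervals, and the combination over anti-CD20 ratio was 0.31 (−0.64 to 1.37), where it was 1.42 over all T cells. In cells without effector genes Eomes was 25.4, 106 and 77.1 CPM (1.60, −0.19 to 3.73, from 10 and 4 UMIs). Id2 was higher in the combination in cells with effector genes (0.92, 0.33 to 1.57), and in those without the interval spanned 0 (−0.10, −0.59 to 0.39). Whether the ratios of the classes differ was not tested. The part of the NK-marker cells of anti-CD20 in the Eomes ratio was not tested either. In CD8 T cells with effector genes (31 of the combination and 12 of anti-CD20, by the definition below), Eomes had 28 and 3 UMIs. Of 5 genes counted there, 3 (Eomes, Id2 and Tox) were called higher in the combination, against 409 of 1973 genes, and 0 lower, against 247. Maf in cells without effector genes was lower in the combination than in anti-CD20 (−1.0, −2.01 to −0.06) and in anti-CD27 than in the isotype control (−1.0, −2.02 to −0.02).

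The same split among CD8 T cells, defined by Cd8a or Cd8b1 without Cd4, gave 77 cells with effector genes and 91 without. Eomes had 53 and 11 UMIs (296 against 87.8 CPM, log2 1.75, 0.80 to 2.84) and Id2 220 and 37 (1229 against 295 CPM, log2 2.06, 1.55 to 2.60). The Eomes ratio was 2.87 without the combination library, 1.26 without anti-CD20 and, as a mean over cells, 0.80, which ends the call. Maf, a gene best known from CD4 T cells, had 26 UMIs in CD8 T cells with effector genes and 0 in those without. That was 6.07-fold higher with the absent side set to 3 counts, leaving out the counting error of the 26. Those Maf UMIs came from 14 cells, 9 of them of the anti-CD27 library. The log2 ratio of Maf, 2.60 against that floor, was 1.74 without the anti-CD27 library, 2.0 without anti-CD20 and 0.57 by Leiden clusters, which ends the call. Tox (0.95, 0.01 to 1.99), Tbx21 (0.86, −0.72 to 2.70) and Runx3 (0.60, −0.24 to 1.49) were under 2-fold. With 1 library left out, Tox ranged from 0.35 (without the combination) to 1.23 (without anti-CD27) and Tbx21 from 0.26 (without anti-CD20) to 1.81 (without the combination). Of the 6 genes counted, 3 were called higher (Eomes, Id2 and Maf), against 18.5% of all genes, and 0 lower, against 14.2%. Without the anti-CD27 library 5 were called higher.

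Prdm1 gave 4 UMIs in the CD8 T cells with effector genes, each in another cell of the combination, and none in the 32 such cells of anti-CD27. The Leiden cluster named effector T-like (142 cells) did not show this contrast, with 8 Prdm1 UMIs in anti-CD27 and 8 in the combination. Among CD8 T cells with effector genes, those with at least 2 of 8 cycling genes had less Maf (7 against 19 UMIs, −2.02, −3.51 to −0.71) and nearly equal Id2 (0.03, −0.37 to 0.44), and Eomes was 0.90 (−0.02 to 1.89). Cycling cells of this kind were in the anti-CD27 and combination libraries, which pointed opposite ways for Runx3 (1.85 and −1.27) and Tox (1.39 and −1.56), with Eomes at 1.56 and 0.02. Maf was at −0.97 in anti-CD27 and at 0 against 9 UMIs in the combination.

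CD4 T cells, 82 in all, carried the Maf and Id3 that were at or near 0 in CD8 T cells without effector genes. Maf had 56 UMIs in CD4 T cells and 0 in CD8 T cells without effector genes. That was 18.1-fold higher with the absent side set to 3 counts, leaving out the counting error of the 56. Id3 had 16 against 2 (log2 2.96, 0.87 to 6.12) and Id2 97 against 37 (1.35, 0.79 to 1.93), whereas Runx3, which silences Cd4, had 8 against 18 (−1.21, −2.62 to 0.06). Tbx21 had 1 UMI in CD4 T cells and Eomes 20, of which 12 came from 4 anti-CD27 cells. Within CD4 T cells, those with a UMI of Foxp3, Ctla4, Il2ra or Ikzf2, genes of regulatory T cells, had more Id3 than the others (12 against 4 UMIs, 1.89, 0.17 to 3.98). The 12 UMIs lay in 6 of the 25 such cells, a class with a median of 2156 UMIs against 1123 in the others. Of 5 genes counted, 2 (Eomes and Id3) were called higher, against 327 of 2766 genes, and 0 lower, against 368. Eomes had 13 and 7 UMIs, and 12 of the 13 came from anti-CD27.

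NK cells had more Tbx21, Eomes and Id2 than T cells. Tbx21 had 14 UMIs in 34 NK cells and 28 in 466 T cells, or 290 against 40.8 CPM. It was 7.11-fold higher (log2 2.83, 1.79 to 3.80), with 2.91 within anti-CD20 and 2.72 within the combination. These rest on 4 NK UMIs in anti-CD20 and 9 in the combination, of which 5 lay in 1 cell. Eomes had 23 and 108 UMIs (477 against 157 CPM, log2 1.60, 0.88 to 2.26), with 3.08 within anti-CD20 and 0.87 (−0.22 to 1.82) within the combination. Id2 had 87 and 500 UMIs (1803 against 729 CPM, log2 1.31, 0.96 to 1.64), with 1.67 and 1.11. All 3 directions were thus the same in the 2 libraries with over 10 NK cells.

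The other genes rest on few NK cells. Maf had 2 UMIs in NK cells against 157 in T cells (−2.46, −5.52 to −0.59) and Tox 3 against 88 (−1.04, −3.35 to 0.55). Runx3 had 3 against 93 (−1.12, −3.43 to 0.47), all 3 in anti-CD20, and without the combination library its ratio was 0.28. Id3 had 7 against 47 (1.08, −0.31 to 2.24), from 3 cells, and Prdm1 2 against 9 (1.66, −1.59 to 3.93), from 1 cell. Of the 8 genes, 5 were called higher (Eomes, Tbx21, Id2, Id3 and Prdm1), against 14.3% of all genes, and 3 lower (Runx3, Maf and Tox), against 9.85%. Leaving out anti-CD20 left 3 higher and 1 lower, and leaving out the combination left 0 lower. Against CD8 T cells with effector genes, NK cells were at log2 2.0 (0.80 to 3.21) for Tbx21, 0.69 (−0.09 to 1.42) for Eomes and 0.55 (0.18 to 0.92) for Id2. Runx3 (−1.81, −4.15 to −0.15), Tox (−1.69, −4.04 to −0.03) and Maf (−1.81, −4.93 to 0.19) were past 2-fold lower, from 2 or 3 NK UMIs each.

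**Figure D4:**
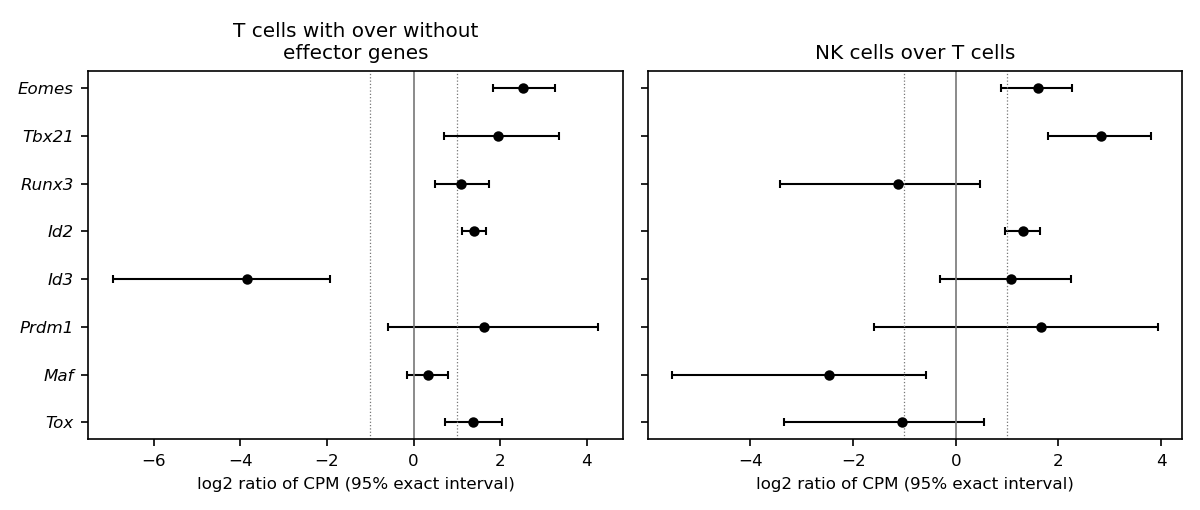
Log2 ratio of CPM (x axis) for T cells with over without effector genes (left) and NK over T cells (right), 1 point per gene with its exact 95% interval. Dotted lines mark 2-fold. Eomes, Tbx21 and Id2 lie to the right in both panels (2.52, 1.96 and 1.39, and 1.60, 2.83 and 1.31), and Id3 lies far left in the first (−3.86).

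Within single T cells, detection of the genes went with effector genes and with depth. Of the 62 T cells with an Eomes UMI, 75.8% had effector genes, against 19.8% of the rest, and their median depth was 1962.5 UMIs against 1117.5. Of the 29 with Id3, 6.9% had effector genes, against 28.6% of the rest. Eomes and Tbx21 were found together in 11 T cells, at a median of 3603 UMIs. Any of the 8 genes was found in 40% of T cells in the isotype control, 56.1% in anti-CD20, 67% in anti-CD27 and 59.7% in the combination. In these sparse counts absence from a cell is not absence of the mRNA.

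A list of 36 other transcription factors was set beside the 8. In T cells with over without effector genes, 29 had enough UMIs, 6 were called higher and 7 lower (10.6% and 13.8% of all genes were), and the median log2 ratio was −0.17 beside −0.04 for all genes. Of the 10 factors of naive and memory T cells, 9 were counted, 6 were lower and 0 higher. Tcf7 (TCF-1, which keeps T cells memory-like) was at −2.86 (−3.62 to −2.18), its relative Lef1 at −1.83 (−2.30 to −1.39), and Satb1, Klf2 and Myb at −1.19, −1.01 and −1.42. Ikzf3 (Aiolos) was higher (1.27, 0.59 to 1.97). The E proteins that Id2 and Id3 hold back, Tcf3, Tcf4 and Tcf12, and the RUNX partner Cbfb were all counted and none was past 2-fold. In the combination over anti-CD20 T cells, Tcf12 was lower (−1.51, −2.74 to −0.38).

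Among receptors, Il2rb, a known target of the T-box factors, was higher in T cells with effector genes (1.54, 0.89 to 2.22), as was Klrg1 of differentiated cells (4.22, 3.12 to 5.58). The inhibitory receptors Pdcd1 (PD-1; 3.11, 2.17 to 4.18), Havcr2 (TIM-3; 41 against 1 UMIs, 5.99, 3.44 to 11.33) and Tigit (1.54, 0.62 to 2.52) were higher too, and Ccr7 and Il7r of naive cells were lower (−3.66 and −1.60). In NK over T cells, 8 of 31 counted factors were called higher and 6 lower, against 14.3% and 9.85% of all genes. Nfatc1 was at 1.79 (0.63 to 2.82) and Stat4 at 1.15 (0.02 to 2.12), while Ikzf2 was at −2.11 (−4.40 to −0.54), Tcf7 at −1.71 and Lef1 at −1.68.

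Genes whose levels were most like each of the 8 were ranked by Pearson's r of log2(CPM + 10) over 22 class and library points of at least 20 cells, among 4394 genes. Points of a library share its depth and its mice, so r is a description. Id2 was most like AW112010 (r = 0.87), Fxyd5 (0.86) and Itga4 (0.85), and Tox most like S100a13 (0.83), Cst7 (0.83) and Batf (0.82). Eomes was most like Car5b (0.80), Tbx21 like Xrn1 (0.85), Runx3 like Pde3b (0.82), Id3 like Pold4 (0.77), Maf like S100a6 (0.82) and Prdm1 like Vps54 (0.69). Among these, Car5b, Pde3b, Pold4 and Vps54 had at most 55 UMIs in T and NK cells.

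On GRCm38 the 8 genes lie at chr9:118478212-118486132 (Eomes, + strand), chr11:97098071-97115331 (Tbx21, −), chr4:135120652-135177990 (Runx3, +), chr12:25093799-25097140 (Id2, −), chr4:136143497-136145755 (Id3, +), chr10:44437177-44528501 (Prdm1, −), chr8:115682942-115707794 (Maf, −) and chr4:6686353-6991557 (Tox, −). UMIs were counted by gene, so isoforms of Runx3, Prdm1 or Maf were not told apart.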

How the data were processed

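Drop-seq of splenocytes gave 4 libraries, 1 per treatment. The authors deposited 1 table of raw UMI counts per gene and barcode. By the submitters' processing notes and the study's methods, reads were made with bcl2fastq, trimmed, aligned to mm10 with STAR 2.5.0a and counted with Drop-seq tools. Columns were tied to treatments by their prefixes, and the prefix PBS was taken as the isotype control because no other group lacks a therapeutic antibody. The genes, lists and gates were chosen with earlier results of these data known.

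Barcodes with 300 to 3000 genes were kept, as in the study. UMIs were summed per class and library (Python 3.11.15, numpy 2.4.6, pandas 2.3.3) and divided by the UMI total of the class (CPM). Intervals are exact Poisson for CPM, Clopper-Pearson for shares and exact conditional for ratios (scipy 1.17.1), at 95%. No doublet caller was run, but cells with at least 2 markers of another lineage stayed out of the T and NK cells. All 8 genes were named throughout, other factors if past 2-fold with at least 30 UMIs (at most 10, by UMIs), and the 3 genes most like each of the 8 were ranked, with the first of them named. The calculation was tested on simulated data, with sums drawn from a Poisson distribution. UMIs clumped in single cells and differences between mice were not simulated. The rates found therefore cover counting error only and are not error rates for treatments. For the combination over anti-CD20 in T cells, on 6254 genes, the interval excluded 0 in the right direction for 50.8% of simulated 2-fold and 86.2% of 4-fold changes, and also excluded 0 for 3.05% of unchanged genes. Alternatives used edgeR 4.0.16 (TMM factors only, no edgeR test) in R 4.3.3 and Leiden clusters (leidenalg 0.10.2). Gene positions are from the GRCm38 annotation and promoters from RefSeq.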

Additional observations from a re-analysis of the deposited data

Results flagged for a closer look

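Runx3 over all cells was lower in the combination than in anti-CD20 (log2 −0.20) and higher in anti-CD27 than in the isotype control (0.43), so the ratios that add anti-CD27 pointed opposite ways on the 2 backgrounds. Both intervals include 0 and the difference was not tested. Id3 in T cells also pointed opposite ways, with −1.44 for the combination over anti-CD20 and 1.03 for anti-CD27 over the isotype control, where the control held 2 UMIs. This difference was not tested either.

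Barcodes with more than 3000 genes are outside every comparison above, and some held signal of the same genes. Eomes had 33 UMIs (168 CPM) in 14 such barcodes of anti-CD27, 19 (41.6 CPM) in 30 of the combination and 2 (28.5 CPM) in 5 of anti-CD20. Id2 had 111 UMIs (243 CPM) in the combination, 13 (66.2 CPM) in anti-CD27 and 1 (14.2 CPM) in anti-CD20. The isotype control held 0 of both, but it has only 2 such barcodes with 48061 UMIs.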

How the results depend on the processing

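The 8 genes' ratios were recomputed under each alternative, 679 values in all, of which 656 stayed within the counting interval of the reported value, 18 left it and 5 were values past 2-fold that changed sign. These 5 were Prdm1 (−0.32) and Tox (0.10) in NK over T cells as means over cells, Id3 in T cells of anti-CD27 over the isotype control with cells of another lineage kept (−0.61), Id3 in NK over T cells by Leiden clusters (−1.31), and Runx3 in NK over T cells without the combination library (0.28, and −1.14 to 0.28 over the libraries left out in turn). Of 192 recomputed counts, 163 stayed within 1.5 times. The share of all genes called was computed at the main settings only. The counts that follow have no such share beside them, so whether they are unusual cannot be told. Under a 1.5-fold limit, the genes higher were 4 for the combination over anti-CD20 and 5 for anti-CD27 over the isotype control in all cells (lower: 2 in the latter), 3 for the combination over anti-CD20 in T cells, and 6 for CD8 T cells with over without effector genes. With at least 500 genes per cell, 2 were higher for the combination over anti-CD20 in all cells, and 0 were lower for anti-CD27 over the isotype control. In T cells of the combination over anti-CD20, 2 were higher as means over cells, with a minimum of 1 UMI, with cells of another lineage kept, or with no UMI of another lineage. For anti-CD27 over the isotype control in T cells, 1 was lower as means over cells and 1 higher with no UMI of another lineage. In NK over T cells, 3 were higher as means over cells, with other lineages kept, by clusters or without the top cells, 2 with a minimum of 1 NK UMI, and 1 was lower as means over cells or with no UMI of another lineage. Among CD8 T cells with over without effector genes, 5 were higher with other lineages kept, by clusters or without the top cells, and 1 was lower with a minimum of 1 UMI or by clusters. Leaving out 1 library at a time gave 3 to 5 higher and 0 to 3 lower in NK over T cells, and 3 to 5 higher in the CD8 T cells. The causes were not tested. T cells by clusters and the top cells left out were chosen after seeing the data.

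TMM scaling moved all ratios by 0.17 for anti-CD27 over the isotype control in all cells, 0.19 in T cells and −0.30 in NK over T cells, and by under 0.1 elsewhere. Depth limits Prdm1 in T cells and Runx3, Tox, Maf, Id3 and Prdm1 in NK cells, each with at most 9 UMIs there. No paired analysis was possible because each treatment is 1 library.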

Other observations

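Clusters made without the 8 genes (17 Leiden clusters) give further values. Prdm1 was at 50.8 CPM in an unnamed cluster of 25 cells led by immunoglobulin genes, with Sdc1, a plasma cell gene, at 224 CPM. It had 5 UMIs there, from 3 cells, with 3 UMIs in 1 cell. An unnamed cluster of 77 cells led by Ly6i, Saa3 and Cxcl9 was at 49.4 CPM of Prdm1 (9 UMIs in 7 cells, 8 of the UMIs in the combination). In the effector T-like cluster of 142 cells Prdm1 had 16 UMIs (48.6 CPM), 8 in anti-CD27 and 8 in the combination. Tbx21 was at 377 CPM in the NK-like cluster of 46 cells and at 66.8 CPM in the effector T-like cluster. Id3 was at 212 and 178 CPM in the 2 B-like clusters.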
